A study of Mus musculus with 14 samples.

Results

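Cerebellum from Thap1 conditional knockout mice (cKO) was compared with cerebellum from wildtype littermates (WT), using the 8 cerebellar count tables of the 14 RNA sequencing libraries of the series. The members are the libraries labelled as cerebellum, 4 WT and 4 cKO, and the comparison runs over every gene they measure. The mice were on the C57Bl/6 background and 6 months old, and no treatment is given in the labels. The tissue was microdissected and flash frozen before total RNA was extracted. The cKO animals carry a conditional deletion of Thap1. The driver of the recombinase, the deleted exons and the cells in which deletion takes place are not stated in the labels used here. The 6 other libraries are striatum of the same genotypes, 3 WT and 3 cKO, and serve below only for the comparison between regions. Libraries are called WT1 to WT4 and cKO1 to cKO4, and lists of 4 values follow that order. The labels do not say whether replicates of a genotype came from different animals. By their sex-linked genes each cerebellar genotype holds 2 male and 2 female libraries, so at least 2 animals. A p-value here reflects only the spread among these libraries, which may in part be technical.

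THAP1 is a DNA-binding zinc-finger protein of the THAP family. Mutations in its gene cause the dystonia DYT6, a movement disorder of sustained muscle contractions. The cerebellar cortex sends its output through Purkinje neurons, which receive excitation from the very numerous granule neurons and are flanked by inhibitory interneurons and Bergmann glia. Oligodendrocytes wrap the axons of the white matter in myelin. The question of the comparison is which genes and which of these cell classes differ in expression when Thap1 is conditionally deleted.

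The cerebellar libraries held 19458954 to 28099205 counts, with 17363 to 17716 genes detected in each. Levels are given as CPM, the count of a gene scaled to a library of 1000000 counts after TMM scaling, whose factors lay between 0.988 and 1.015. The dissections matched their labels. The granule neuron gene Gabra6 stood at 720 to 914 CPM in cerebellum and had no count in striatum, and Cbln3 stood at 1745 to 2103 CPM in cerebellum. The striatal dopamine receptor gene Drd1a stood at 0.232 to 0.517 CPM in cerebellum and 437 to 512 CPM in striatum. One library stood apart. WT3 lay at 29.8 on the first principal component, which held 31.9% of the variance and did not separate the genotypes. That component did separate the sexes, with male libraries at −22.6 to −7.99 and female ones at 0.595 to 29.8. The summed choroid plexus markers of WT3 were the lowest of the 8, at 248 CPM against 2313 to 3725 CPM in the other WT libraries and 1295 to 5689 CPM in cKO.

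Thap1 itself was expressed at 10.3, 8.15, 10.5 and 8.32 CPM in WT and 7.34, 7.45, 7.79 and 6.84 CPM in cKO. Every cKO library lay below every WT library, and the cKO mean was 79.03% of the WT mean. The log2 fold change, positive where cKO is higher, was −0.34 (SE 0.10003, edgeR adjusted p 0.0488). The exact two-sided permutation test gave p = 0.0286, the smallest value that the 70 arrangements of 4 against 4 libraries allow. The values rest on at least 159 counts per WT library and 148 per cKO library. The call is marginal. Of the 8 fits that each leave out 1 library it was made only without WT2 or WT4, and under scaling by the size factors of DESeq2 or by library totals its edgeR adjusted p was 0.0503 and 0.0597. The counts are given per gene, so any transcripts that lack a deleted exon would be counted with the intact ones. Whether such transcripts are present was not tested.

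Of 14775 genes tested, 1121 (7.59%) were called, meaning that their Benjamini-Hochberg adjusted p in edgeR's quasi-likelihood test was under 0.05. Of these, 388 genes (2.63% of those tested) were higher in cKO and 733 (4.96%) lower. The 4 cKO libraries did not overlap the 4 WT libraries in 1025 of the called genes, 357 higher and 668 lower, and in 2118 (14.3%) of all tested genes. The changes were small. Among called genes 760 (67.8%) differed by less than 1.25-fold, 232 by 1.25 to 1.5-fold, 88 by 1.5 to 2-fold and 41 (0.277% of tested genes) by 2-fold or more. The median absolute log2 fold change of called genes was 0.24. The share called rose with expression level, from 0.958% of genes under 1 CPM to 13.9% of those at 100 CPM or more, while the median absolute log2 fold change of called genes went from 1.26 to 0.18 over the same range. In whole tissue, a lower level of a cell type's transcript can come from fewer cells or from less RNA per cell, and the counts do not separate these.

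**Figure D1:**
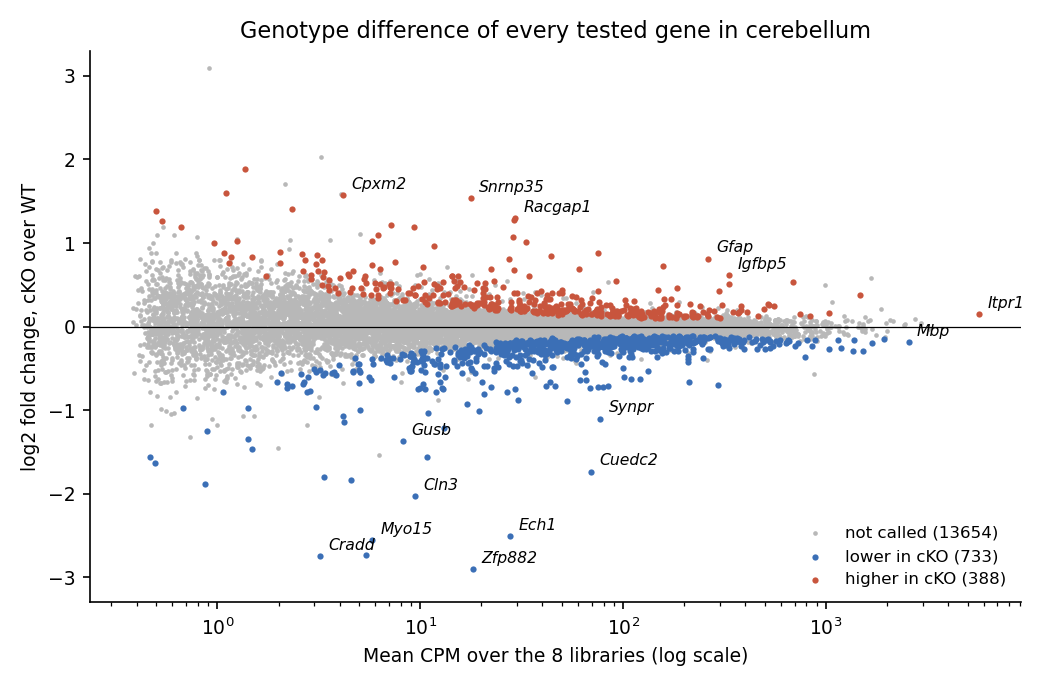
Each point is one of the 14775 tested genes, with the mean CPM of the 8 libraries on the x axis (log scale) and the log2 fold change of cKO over WT on the y axis. Blue points are the 733 genes lower in cKO, red points the 388 higher and grey points those not called. Most called genes lie close to 0, and the 41 genes past 2-fold lie mainly below 100 CPM.

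The count of calls depended on which libraries entered. It ran from 739 without WT3 and 744 without cKO2 to 1165 without WT2, and 578 genes (178 higher, 400 lower) were called whichever of the 8 libraries was left out. A single gene described below as risen or fallen was called in the fit of all 8 libraries and, unless a library is named beside it, in each of the 8 fits that leave out 1 library. Counts of the risen and fallen members of a list are those of the fit of all 8 libraries. Where such a count moved by more than 1.5 times when a library was left out, its range over those 8 fits is given beside it, in brackets or in words.

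The genes that fell furthest serve unrelated cell functions. Ech1 encodes a dienoyl-CoA isomerase used in the oxidation of unsaturated fatty acids. It was measured at 49.7, 44.4, 48.2 and 46.4 CPM in WT and 10.2, 7.59, 8.97 and 6.595 CPM in cKO. The genotypes were far apart, and the log2 fold change was −2.51 (SE 0.103, edgeR adjusted p 3.94e-08). Cuedc2, which encodes a ubiquitin-binding CUE domain protein, had the smallest p of all genes, at 101, 104, 108 and 111 CPM in WT and 31.5, 32.6, 31.2 and 32.3 CPM in cKO. All 4 cKO libraries kept about the same level, and the mean fell to 30.1% of WT (log2 fold change −1.73, SE 0.0426, edgeR adjusted p 2.10e-13). Cuedc2 overlaps Fbxl15 on the opposite strand, and whether counting used strand is not given, so reads from that gene cannot be told apart.

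Cradd, the death-domain adaptor that links to caspase-2, stood at 5.85, 6.102, 4.85 and 5.42 CPM in WT and 0.992, 0.644, 0.7302 and 0.927 CPM in cKO. Zfp882, a zinc-finger gene that overlaps Zfp617 on the same strand, stood at 38.4, 26.9, 34.8 and 27.97 CPM in WT and 4.86, 4.23, 3.61 and 4.49 CPM in cKO. Its log2 fold change of −2.90 was the lowest of the genes named here, and its groups did not overlap. Myo15, the unconventional myosin of hair-cell stereocilia, fell from 9.85 to 1.68 CPM (log2 fold change −2.56). Cln3, a membrane protein of lysosomes and endosomes mutated in juvenile Batten disease, fell from 15.2 to 3.69 CPM (log2 fold change −2.03), and overlaps Apobr on the opposite strand. Gusb, the lysosomal enzyme beta-glucuronidase, fell from 11.9 to 4.62 CPM (log2 fold change −1.37).

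The gene listed as 1110034G24Rik, now named Shld1 and encoding a shieldin subunit that protects DNA ends at breaks, fell from 9.403 to 1.401 CPM (log2 fold change −2.73). Atpbd4, now named Dph6, completes the diphthamide residue of elongation factor 2, and fell from 16.05 to 5.47 CPM. Eef2 itself differed by −0.08 and was not called. Comp, a matrix protein of cartilage, was low in both genotypes and fell from 7.12 to 2.03 CPM. Slco2a1, a prostaglandin transporter, fell from 18.2 to 7.87 CPM.

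Synpr encodes synaptoporin, a membrane protein of synaptic vesicles, and combined a large change with a high level. It stood at 112, 95.8, 107 and 106 CPM in WT and 45.7, 49.5, 47.99 and 52.4 CPM in cKO, a log2 fold change of −1.10 (SE 0.0515, edgeR adjusted p 1.35e-09), and no library of one genotype reached the range of the other. Prepl, a prolyl endopeptidase-like hydrolase, fell to 61.6% of WT and overlaps Slc3a1. Fxyd6, a regulator of the Na,K-ATPase, fell to 61.0%, and Ehd3, an ATPase of endocytic recycling, to 60.3%. Car4, a carbonic anhydrase of the cell surface, fell to 64.8%, Echdc2, a mitochondrial hydratase-like protein, to 59.8%, and Fbxo9, an F-box subunit of a ubiquitin ligase, to 65.98%.

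The genes that rose most were of low or moderate expression. Racgap1, which controls small GTPases at the spindle midzone in cytokinesis, stood at 15.8, 18.1, 17.0 and 16.96 CPM in WT and 41.5, 42.3, 41.1 and 42.3 CPM in cKO. The 8 libraries formed 2 tight groups, with a log2 fold change of 1.30 (SE 0.0512, edgeR adjusted p 1.75e-10). Ppp2r3c, which regulates protein phosphatase 2A, stood at 19.1, 19.3, 17.1 and 18.5 CPM in WT and 38.9, 39.7, 37.2 and 39.9 CPM in cKO, again without overlap. Its exons overlap those of 1110008L16Rik on the opposite strand. Snrnp35, a protein of the U11/U12 particle of the minor spliceosome, rose from 9.09 to 26.4 CPM (log2 fold change 1.54). Cyb5d2, a haem-binding protein, rose from 16.8 to 40.8 CPM, and Cpxm2, a member of the carboxypeptidase X family, from 2.08 to 6.24 CPM.

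Several risen genes act in the mitochondrion or in protein synthesis. Aars2, the mitochondrial alanyl-tRNA synthetase, stood at 48.7, 54.9, 51.2 and 56.2 CPM in WT and 96.8, 100.2, 95.5 and 95.04 CPM in cKO. Its lowest cKO library lay far above its highest WT library (log2 fold change 0.88, SE 0.0454, edgeR adjusted p 3.14e-09). Dnlz, a co-chaperone of the mitochondrial heat shock protein 70, rose from 31.7 to 56.8 CPM and overlaps Gpsm1. Nars, the cytosolic asparaginyl-tRNA synthetase, rose from 274 to 389.5 CPM, and Imp4, a protein of the U3 particle that processes ribosomal RNA, from 27.3 to 41.3 CPM. Prpsap1, which binds phosphoribosyl pyrophosphate synthetase in nucleotide synthesis, rose from 46.1 to 74.4 CPM, and Lyrm1, which overlaps Dcun1d3, from 7.87 to 15.4 CPM.

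Others act in the secretory pathway or at the cell surface. Os9, a lectin of the endoplasmic reticulum that hands misfolded glycoproteins over for degradation, rose from 154 to 212 CPM. Ddr2, a receptor kinase for collagen, rose from 22.02 to 44.6 CPM, with an annotated overlap with 3110045C21Rik. Igfbp5, a binding protein of insulin-like growth factors, stood at 254, 259.7, 270.0 and 265 CPM in WT and 395, 408, 410.5 and 396 CPM in cKO. No overlap was seen, and its log2 fold change was 0.62 (SE 0.0338). Ddr2 and Igfbp5 are also markers of meningeal and perivascular fibroblasts, whose summed level was higher in cKO, as given under the cell types. The neutral amino acid transporter Slc1a4 rose from 42.3 to 57.3 CPM, the lysosomal membrane protein gene Gpr137, which overlaps Bad, from 75.1 to 109.9 CPM, and Casc4, a Golgi membrane protein, from 126 to 170.4 CPM. Slco1a5, Il13ra2 and Slc35f4 also passed 2-fold, from WT means of 0.577, 0.549 and 1.27 CPM.

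**Figure D2:**
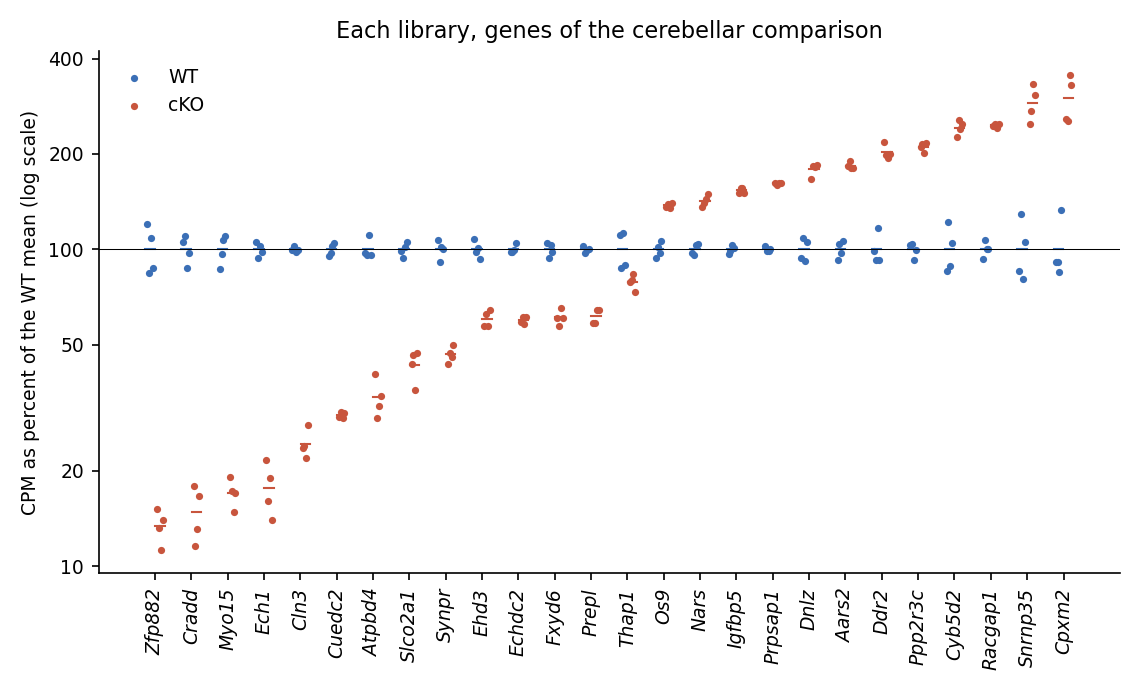
Each point is a library, plotted as CPM in percent of the WT mean of that gene (log scale), for the strongest genes named in the text and Thap1. Blue is WT, red is cKO and short lines are group means. The cKO points of Zfp882, Cradd, Myo15 and Ech1 lie lowest, those of Snrnp35 and Cpxm2 highest, and the Thap1 points lie at 79.03% on average.

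The promoters of the strongest genes were read from RefSeq's table for GRCm38.p6, which gives 250 bases before to 50 bases after each annotated start. A pair of short elements recurred in them, GCCC and ATGGC with 9 bases between, searched on both strands as GCCCNNNNNNNNNATGGC. The pair was found by reading the promoters of the strongest genes of this same comparison, so its frequency among called genes is a description without a test. Of the 50 called genes with the smallest p that have an entry, 13 hold it. Their 30-base windows are shown because they make the common spacing visible. Capitals mark the paired elements, and each sequence runs 5′ to 3′ on the strand that carries it.

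Cuedc2 (fell, chr19:46338687-46338716, minus strand): caaagcGCCCttctcaaaaATGGCcaccac
Racgap1 (rose, chr15:99651766-99651795, minus strand): gtgtgtGCCCttagtcaaaATGGCcgcctt
1110034G24Rik (fell, chr2:132686829-132686858, plus strand): gcaaatGCCCtcagttaagATGGCcgcagc
Aars2 (rose, chr17:45506835-45506864, plus strand): gccgttGCCCggagctaagATGGCggtggc
Prpsap1 (rose, chr11:116490400-116490429, minus strand): ctccctGCCCttttccgagATGGCggcggg
Prepl (fell, chr17:85090494-85090523, plus strand): cggctcGCCCtcacttaagATGGCcaccag
Cradd (fell, chr10:95324153-95324182, minus strand): tcttgcGCCCtcaacaaagATGGCtacagc
Ech1, first copy (fell, chr7:28825202-28825231, plus strand): tcgtttGCCCttagtaaagATGGCgaacta
Ech1, second copy (fell, chr7:28825271-28825300, plus strand): ttcggtGCCCttgaccaacATGGCgaacgt
Imp4 (rose, chr1:34439777-34439806, minus strand): cagagtGCCCcatcttaagATGGCgaatgg
2210009G21Rik (rose, chr2:136892154-136892183, minus strand): accagcGCCCaaacacaagATGGCattatc
Tmem180 (fell, chr19:46356779-46356808, plus strand): gaaataGCCCattacaaacATGGCagcgac
Cyb5d2 (rose, chr11:72796020-72796049, plus strand): ttatccGCCCtcaacaaagATGGCggcaga
Psmb5 (fell, chr14:54618073-54618102, minus strand): gtggttGCCCggagtaaaaATGGCgccgcc

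Genes on both sides carry the pair, 29 higher and 25 lower in cKO. In all, 162 of the 11456 tested genes with a promoter entry (1.41%) hold it, and 54 of these 162 (33.3%) were called, against 853 of the 11456 (7.45%). Among the 32851 promoter windows of the table it occurs in 238 (0.724%). The median absolute log2 fold change of its 162 genes was 0.13, against 0.08 over all tested genes with an entry. Their median signed log2 fold change was 0.01. Of the 41 called genes past 2-fold, 10 hold the pair. Counting the first copy found in each gene, the 162 genes hold it at 150 sites, since 12 sites lie in the windows of 2 genes each. More than 1 copy was found in 13 of the 162 genes. Outside the 13 genes whose windows are shown, 41 of 149 (27.5%) were called. In 92 of the 162 genes the first copy found lies within 100 bases of the annotated start. The promoter entries cover 77.5% of tested genes, too few for a share over all called genes.

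The counts differed with the spacing. At the other spacings from 0 to 20 bases, 34 to 71 tested genes hold the elements and between 0 and 7 of them were called. The highest called share among these was 20.6%, 7 of 34 genes at a spacing of 2 bases, followed by 11.3% at 19 bases. Each element alone was common. ATGGC lies in 40.5% of windows, with 7.54% of its tested genes called, and GCCC in 89.2%, with 7.53% called. ATGGC is the core of the published YY1 motif. The longer AAGATGGC lies in 2.75% of windows, with 58 of its 544 tested genes (10.7%) called in cerebellum and 1.51% of those tested called in striatum. Many called genes with the pair hold AAGATGGC as part of it, among them Aars2, Prepl, Cradd and Imp4. The called share of AAGATGGC without such genes was not computed. The letters TNNNGGCA, a core bound by the THAP1 zinc finger, lie in 42% of windows, with 8% of their tested genes called, and they can share letters with an ATGGC that is followed by A. Among the strongest genes, Cln3, Myo15 and Ppp2r3c do not hold the pair in this window.

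**Figure D3:**
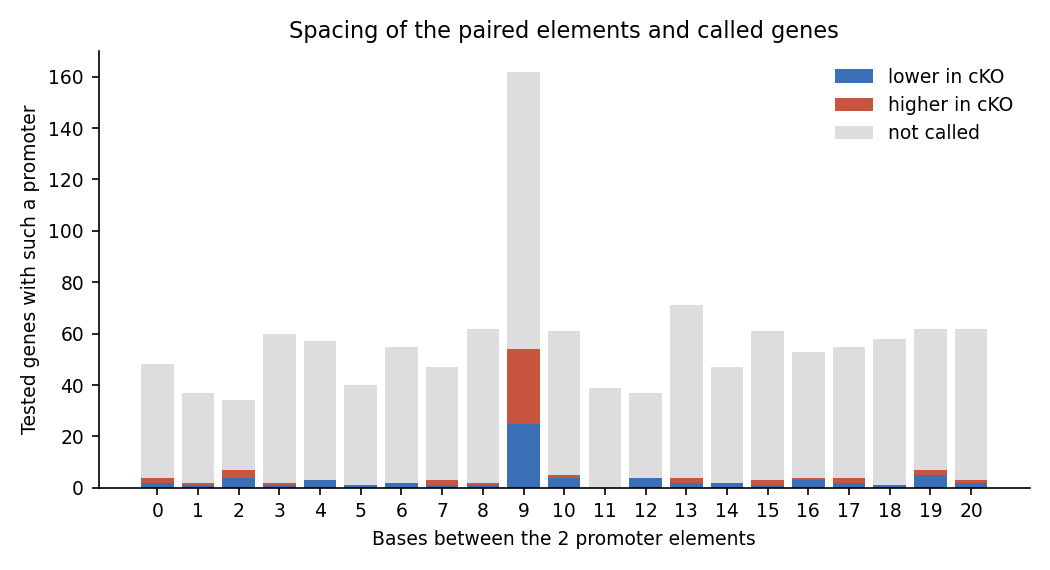
Bars give the number of tested genes whose promoter holds GCCC and ATGGC with 0 to 20 bases between them (x axis), divided into genes lower in cKO (blue), higher (red) and not called (grey). The bar at 9 bases holds 162 genes, 54 of them called, and no other bar holds more than 7 called genes.

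The upstream sequence of Racgap1, the gene with the smallest p among those that rose, is printed to show the pair in place. It covers chr15:99651657-99651906 on the minus strand of GRCm38.p6, the 250 bases before the annotated start, with the paired elements in capitals. The pair begins at −133 relative to that start. The gene itself spans chr15:99620496-99651656.

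Racgap1 upstream: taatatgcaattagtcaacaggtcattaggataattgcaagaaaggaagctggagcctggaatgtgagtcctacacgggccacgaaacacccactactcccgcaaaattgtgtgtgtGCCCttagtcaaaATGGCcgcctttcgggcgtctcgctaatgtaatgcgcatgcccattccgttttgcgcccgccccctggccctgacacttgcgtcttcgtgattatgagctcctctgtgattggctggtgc

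A list of candidate THAP1 targets was drawn up with earlier results of these data in view. Of its 7 tested members, 4 fell and 1 rose. The fallen members were 1110034G24Rik, Ech1, Gusb and Psmb5, a catalytic subunit of the proteasome, which went from 15.1 to 8.79 CPM. Cox6c, a subunit of cytochrome oxidase, rose by 0.16. Rrm1, a ribonucleotide reductase subunit known as a THAP1 target in endothelial cells, differed by 0.11 and was not called.

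Among the most abundant called genes the differences were smaller. Mbp, myelin basic protein, stood at 2549, 2813, 2829 and 2668 CPM in WT and 2367, 2203, 2596 and 2395 CPM in cKO. The groups overlapped, and its log2 fold change of −0.18 (edgeR adjusted p 0.03103) was fragile (called only without WT1 or cKO3 among those fits). Itpr1, the calcium release channel that Purkinje neurons express at very high levels, stood at 5315, 5521, 5361 and 5292 CPM in WT and 5815, 6214, 5810.1 and 6057 CPM in cKO. The groups lay close to each other without overlap, and the log2 fold change was 0.15 (SE 0.0329) (not called without cKO2). Kif5a, a kinesin heavy chain of axonal transport mutated in spastic paraplegia, rose from 1284 to 1668 CPM. Cplx2, complexin 2 of the release machinery, fell from 1288 to 1076 CPM. Syne1, a giant protein of the nuclear envelope mutated in a recessive cerebellar ataxia, fell from 1499 to 1222 CPM.

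In all, 90 lists of genes were drawn up by function and by cell type, and 89 had a measured member. Over their 3209 tested genes 127 rose and 161 fell, 8.97% together, near the 7.59% of all tested genes. Of the lists, 7 held no called gene. Medians below compare with 0.00, the median log2 fold change of all tested genes. Counts are small, and none of them was tested as a set. In 1 model of all 14 libraries the lists held 67 called genes instead of 288. Fallen myelin genes then numbered 2 instead of 13, and fallen granule neuron markers 0 instead of 4. Risen fibroblast markers numbered 2 instead of 9, and risen genes of respiratory complexes II to V 0 instead of 7.

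Every called voltage-gated calcium channel gene fell. Of 22 tested subunits, 5 fell and none rose (median −0.06), the same number whichever library was left out. All were pore-forming alpha1 subunits. Cacna1e, the R-type channel, stood at 283, 238, 259.6 and 255 CPM in WT and 145, 149.5, 190.3 and 170.0 CPM in cKO. Its cKO libraries lay well under the WT range (log2 fold change −0.66, SE 0.0966, edgeR adjusted p 0.00728). Cacna1i, a T-type channel, fell by 0.53 on the log2 scale, Cacna1c and Cacna1d, the L-type channels, by 0.35 and 0.23, and Cacna1b, the N-type channel, by 0.21. Cacna1a, the P/Q-type channel of Purkinje and granule neurons, differed by −0.11 without overlap of the libraries and was not called (edgeR adjusted p 0.07798). Cacna1g, the main T-type channel of Purkinje neurons, differed by 0.02.

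Other calcium genes moved both ways. Of 37 pumps, exchangers and store channels, 4 fell (2 to 4, fewest without WT4 or cKO3) and 1, Itpr1, rose (0 to 2, fewest without cKO2) (median −0.01). Atp2b4, a calcium pump of the plasma membrane, stood at 84.8, 82.97, 88.96 and 86.02 CPM in WT and 52.5, 43.5, 55.3 and 54.97 CPM in cKO, and Itpr3, another isoform of the store channel, at 53.7, 50.3, 61.9 and 63.6 CPM in WT and 32.2, 37.1, 36.5 and 34.2 CPM in cKO. Neither gene's genotypes overlapped, and the log2 fold changes were −0.73 and −0.71. Slc8a2, a sodium-calcium exchanger, fell by 0.29 (not called without WT2, WT4 or cKO3). The pump of the endoplasmic reticulum, Atp2a2, differed by 0.07 and was not called.

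Potassium channel genes were called 5 times higher and 8 times lower among 70 (median −0.04). Leaving out a library gave 2 to 5 higher, fewest without cKO2, and 6 to 9 lower. Kcnj10, the Kir4.1 channel of glia, rose from 347 to 412 CPM, and Kcns3, a modulatory subunit, from 1.84 to 3.38 CPM. Kcnt1, a sodium-activated channel, fell from 429 to 357 CPM, and Kcnk9, a leak channel of granule neurons, from 22.9 to 18.2 CPM. Kcnip3, a calcium sensor that binds Kv4 channels, fell by 0.25, and Kcnj12 by 0.24. Kcnc1, the fast Kv3.1 channel, fell by 0.16 (not called without cKO2). Of 15 sodium and HCN channel subunits only Scn1a was called, with a log2 fold change of 0.17 (not called without WT3, cKO2, cKO3 or cKO4).

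Receptors for transmitters were called at shares near the 7.59% of all tested genes. Of 25 glutamate receptor subunits 2 fell (0 to 2, fewest without cKO3) and none rose (median −0.07). Grin2c, the NMDA receptor subunit of mature granule neurons, fell by 0.19 (not called without WT4, cKO3 or cKO4). Of 19 GABA and glycine receptor subunits, Gabrd alone was called and fell by 0.18. Gabrd pairs with Gabra6 in extrasynaptic receptors of granule neurons, and Gabra6 differed by 0.01.

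Among 64 genes of synaptic vesicles and release, 7 fell and 3 rose (median −0.04), or 5 to 8 and 1 to 3 when a library was left out. Beside Synpr and Cplx2, the active zone scaffold Bsn fell by 0.21, Erc1 by 0.19 and Syt13 by 0.16. Rab3c, a GTPase on vesicles, rose by 0.17. Snap25, a core part of the fusion machinery, differed by 0.04 and was not called. Of 58 scaffold and adhesion genes, 3 fell (2 to 6, fewest without WT4, cKO1, cKO2 or cKO3) and 1 rose (0 to 2). Dlg4, the postsynaptic scaffold PSD-95, fell by 0.15, and Cntn2, an adhesion molecule of granule neurons and of myelinated axons, by 0.26.

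Genes of ion and acid-base transport were called in both directions. Among 28 carbonic anhydrases and bicarbonate or chloride transporters 5 fell and 2 rose (1 to 2, fewest without WT3 or cKO3) (median −0.01). Slc12a9, a cation-chloride cotransporter relative, fell from 27.9 to 16.9 CPM, and Car11, a catalytically inactive relative of carbonic anhydrases, from 54.2 to 45.7 CPM. Slc4a1, the anion exchanger of red blood cells, was low in every library and fell from 2.17 to 0.788 CPM. Slc4a7, a sodium-bicarbonate cotransporter, rose by 0.23. Of 10 Na,K-ATPase genes 2 fell, Fxyd6 among them, and 1 rose, Atp1b3, by 0.14 (not called without WT4, cKO1 or cKO2).

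Every called microtubule gene fell. Of 45 tubulins and microtubule-associated proteins 5 fell and none rose (median −0.06), and 2 to 9 fell when a library was left out, fewest without WT3, cKO1 or cKO2. Tubb4a, a beta-tubulin whose mutations cause dystonia DYT4, stood at 836, 934, 986 and 934 CPM in WT and 825, 775, 759 and 785 CPM in cKO. Its genotypes did not overlap (log2 fold change −0.23, SE 0.0490). Mtap7, which recruits kinesin-1 to microtubules, fell by 0.19. Among 55 motor genes 5 fell and only Kif5a rose, with 2 to 4 falling when a library was left out, fewest without WT3, WT4 or cKO3. Of these, Kif26b and Kif13a fell by 0.25 and 0.16. In endocytic recycling 5 of 69 genes fell (3 to 5, fewest without WT3 or cKO2), among them Ehd3, its relative Ehd1, by 0.18, and the sorting nexin Snx30, by 0.26.

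Most called respiratory subunits rose. In complexes II to V, 7 of 47 rose and none fell (median 0.08), with 5 to 8 when a library was left out. The subunits of cytochrome oxidase were the most frequent among them. Cox5b stood at 55.5, 57.8, 57.3 and 54.3 CPM in WT and 64.2, 61.5, 67.3 and 70.7 CPM in cKO, Cox8a at 204, 213, 205 and 202 CPM in WT and 223, 229, 237.4 and 238 CPM in cKO and Cox6c at 116, 111, 113 and 114 CPM in WT and 129, 128, 127 and 126 CPM in cKO. In none of these did the genotypes overlap, and each rose by less than 1.25-fold. Complex I had 2 risen (0 to 2, fewest without cKO2) and 1 fallen members of 45 (median 0.06). The large ATP synthase subunits Atp5b and Atp5a1 differed by 0.04 and 0.01. Of 30 citric acid cycle genes 3 rose (0 to 2, fewest without WT2, WT3, cKO2 or cKO4), Pcx (called only without WT1, WT4 or cKO1 among those fits), Idh3a (called only without WT4 or cKO3 among those fits) and Mdh1 (not called in any fit without 1 library), which also overlaps Wdpcp. In glycolysis Hk2, a hexokinase, rose by 0.26 and Ldha fell by 0.14 (called only without WT2, WT4 or cKO3 among those fits) among 23 genes. Ldha was also not called under scaling by library totals (edgeR adjusted p 0.0541).

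Lipid metabolism was called at single genes, all of them lower in the fit of all 8 libraries. Of 38 beta-oxidation genes only Ech1 and Echdc2 were called. Of 24 cholesterol synthesis genes 2 fell (1 to 4, fewest without WT3, WT4 or cKO1), led by Srebf2, the transcription factor of the pathway, by 0.29. Hmgcs1, which makes an early precursor of sterols, differed by 0.08 and was not called. In fatty acid and sphingolipid synthesis 4 of 38 fell (1 to 3, fewest without WT2 or cKO2), and up to 2 rose when a library was left out. Fa2h, which hydroxylates the fatty acids of myelin sphingolipids, was the strongest. Scd2, the main brain stearoyl-CoA desaturase, fell by 0.15 (not called without WT2, WT3, cKO1 or cKO2).

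Translation genes were called at synthetases rather than ribosomes. Cytosolic aminoacyl-tRNA synthetases had 4 risen (2 to 3, fewest without WT1, WT2, cKO2 or cKO4) and 1 fallen members (0 to 1) of 24 (median 0.06). Nars stood at 266, 263, 282 and 283 CPM in WT and 371, 383, 395 and 409 CPM in cKO, with all cKO libraries far above WT, and Kars rose by 0.24. Of the mitochondrial synthetases, Aars2 and Iars2 rose, the latter by 0.21, and 1 of 20 fell. By contrast 1 of 80 cytosolic ribosomal protein genes was called, Rplp1, which rose by 0.18 (median −0.02), and 2 mitochondrial ones rose (1 to 2) and 1 fell (0 to 1) of 78. In ribosome assembly Imp4 and Wdr75 rose, by 0.60 and 0.31.

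The few called genes of the response to amino acid shortage and to misfolded protein were mostly higher. Of 31 targets of the integrated stress response 4 rose and none fell (median 0.10), with 4 to 6 when a library was left out. Slc7a11, the cystine exchanger, stood at 47.7, 41.1, 39.6 and 37.5 CPM in WT and 57.5, 53.3, 54.7 and 53.9 CPM in cKO, and Asns, asparagine synthetase, at 105, 102, 110.1 and 109.7 CPM in WT and 115, 122.9, 118 and 126 CPM in cKO. The genotypes of both genes were separate, with log2 fold changes of 0.40 and 0.18. Slc1a4 and Nupr1 were the others. Atf4, the transcription factor of this response, which is controlled mainly at translation, differed by −0.01 and was not called. Among 37 genes of the unfolded protein response 5 rose and 1 fell (0 to 1) (median 0.08), with 4 to 13 rising when a library was left out, most without WT1. Hsp90b1, the chaperone GRP94, rose from 478 to 573 CPM and overlaps 1810014B01Rik. Canx, calnexin, rose from 458 to 531 CPM, and Derl3, a channel component for degradation, from 0.817 to 1.67 CPM. Hspa5, the central chaperone BiP, stood at 449, 283, 342 and 285 CPM in WT and 371, 382, 429 and 375 CPM in cKO, where the genotypes overlapped and no call was made.

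Protein breakdown moved at single genes. In the lysosome 4 of 60 genes fell and 3 rose (1 to 2, fewest without WT3 or cKO1). Cln3 and Gusb were given above, and Slc17a5, the sialic acid exporter, fell from 20.2 to 16.5 CPM. Galc, the galactosylceramidase of Krabbe disease, rose from 38.7 to 48.8 CPM. Abundant lysosomal genes such as Psap, Ctsb and Lamp1 differed by −0.03, 0.06 and −0.00 and were not called. Psmb5 was the only called gene of 49 proteasome genes, and Atp6v0a1, a subunit of the proton pump, rose by 0.27. Of 37 apoptosis genes 6 fell and none rose, and 2 to 4 fell when a library was left out, fewest without cKO3. Hrk, a pro-apoptotic BH3-only gene of neurons, fell from 12.5 to 7.51 CPM, and with Cradd it held in every such fit.

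The called shares of 6 lists of nuclear functions lay between 5.77% and 7.69%, near or under the 7.59% of all tested genes. Of 52 proteins of the major spliceosome 3 fell (0 to 6, fewest without WT3, cKO1 or cKO2), and Snrnp35 was the only called gene of 14 of the minor one. In DNA repair 1110034G24Rik fell and 3 of 69 genes rose (0 to 3, fewest without cKO1 or cKO2), none of which kept its call in all fits without 1 library. Zinc-finger genes named Zfp had 6 risen and 15 fallen members (9 to 20, fewest without WT3) of 358 (median −0.03). Zfp764 fell from 5.62 to 2.66 CPM, Zfp689 from 11.9 to 8.23 CPM and Zfp563 from 35.7 to 27.04 CPM, and Zfp597 rose from 43.1 to 57.2 CPM. Zfp genes include near-identical copies among which reads may be divided. Of 78 histone-modifying enzymes 5 fell (1 to 7, fewest without cKO1) and 1 rose (0 to 2, fewest without WT4, cKO2, cKO3 or cKO4), and Kdm2b, a demethylase that binds CpG islands, fell by 0.23. Of the THAP family and its partners, 2 of 26 fell (0 to 2), Thap1 and Cnot6 (called only without WT2, WT4 or cKO3 among those fits). Ogt and Hcfc1, the latter a known partner of THAP1, differed by −0.05 and −0.03 and were not called.

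**Figure D4:**
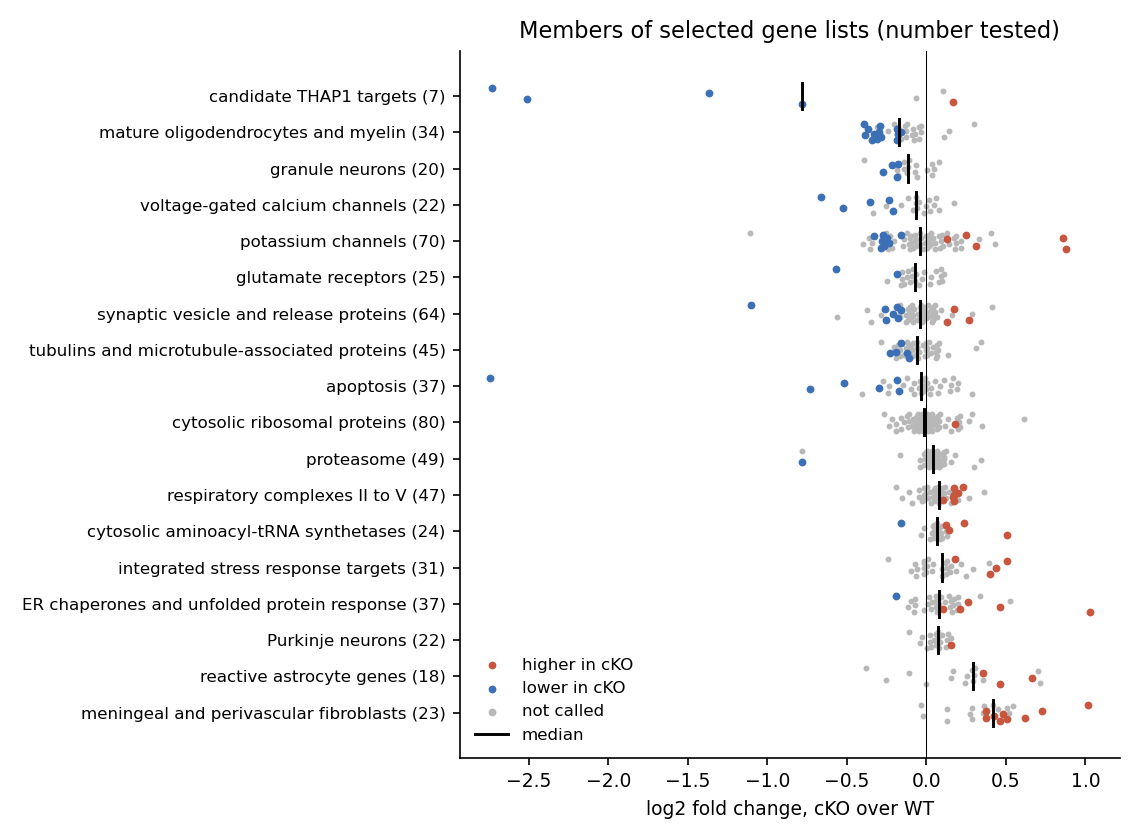
Each point is a tested member of a gene list, at its log2 fold change of cKO over WT. Red members were called higher, blue lower and grey not called, and black lines are list medians. The lists were chosen for display after their values were seen. Calcium channels and myelin genes hold only blue called members, and respiratory complexes II to V and fibroblast genes only red ones.

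Signalling genes were called in both directions. Of 23 genes of thyroid hormone and retinoid signalling 3 fell (2 to 3, fewest without WT3, cKO2 or cKO4) and 1 rose (0 to 1). Dio2, the deiodinase by which glia activate thyroid hormone, stood at 56.1, 48.5, 53.9 and 48.9 CPM in WT and 28.7, 29.4, 36.2 and 32.05 CPM in cKO. The genotypes were separate, with a log2 fold change of −0.71 (SE 0.0722, edgeR adjusted p 4.25e-05), and Klf9, a gene induced by thyroid hormone, fell by 0.19. Of 57 genes of hedgehog, BMP and TGF-beta signalling 5 rose (2 to 8, fewest without WT3 or WT4) and 3 fell (1 to 5, fewest without WT3, cKO1 or cKO2). Bmp1, a protease that processes procollagen, fell from 239 to 179 CPM, while Tgfbi, a matrix protein induced by TGF-beta, rose from 3.82 to 7.77 CPM and Id3, a target of BMP signalling, from 19.5 to 24.9 CPM. Of 54 Wnt and Notch genes 2 rose and 1 fell (1 to 2). Wnt4 and Wnt5a rose from low levels, 4.24 to 6.46 CPM and 5.93 to 8.41 CPM, and Wnt7a, a ligand made by granule neurons, fell by 0.21. Irs2, an adaptor of insulin and IGF receptors, fell by 0.24. In the list of extracellular matrix and adhesion 6 fell and 4 rose (4 to 7) of 121, 8.26% together. Mmp24, a membrane-bound protease of neurons, fell from 279 to 215.6 CPM, and Lama2 and Thbs2, proteins of the matrix, rose from 32.5 to 42.8 CPM and from 11.9 to 15.6 CPM.

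Of 37 genes in which mutations cause dystonia or related movement disorders, 3 rose and 3 fell (median −0.05). Prrt2, mutated in paroxysmal kinesigenic dyskinesia, stood at 481, 499, 508 and 548 CPM in WT and 579, 604, 615 and 622 CPM in cKO, with every cKO library above WT. Ano3, a calcium-dependent membrane protein of DYT24, rose from 37.03 to 44.5 CPM, and Kcnma1, a calcium-activated potassium channel, had a log2 fold change of 0.13 that neither limma-voom (adjusted p 0.0529) nor edgeR with sex as a covariate (adjusted p 0.0511) called (called only without WT2 or cKO1 among those fits). The fallen members were Thap1, Tubb4a and Cacna1b. Gnao1 differed by −0.05 and was not called.

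The lists of neuronal markers differed in their calls, from none of the molecular layer and unipolar brush markers to 4 of 20 granule and 3 of 9 Golgi markers. Granule neuron markers had 4 fallen and no risen members of 20 (median −0.12), from 3 to 8 when a library was left out. Fat2, a giant cadherin of granule neurons, stood at 1169, 1016, 1147 and 1189 CPM in WT and 912, 902, 1022 and 905 CPM in cKO, where 1 cKO library reached just above the lowest WT library. Reln, the secreted glycoprotein reelin, fell by 0.21. The summed granule markers lay at 10239.5, 9364, 10465 and 10583 CPM in WT and 9048, 9458, 9519.7 and 9553 CPM in cKO and overlapped. Purkinje markers had 1 called member (0 to 2, fewest without cKO2) of 22, Itpr1, but their sum was higher in every cKO library, 15667, 16972, 16118 and 17053 CPM against 14812, 15224, 15622 and 15464 CPM in WT. Itpr1 makes up 35.8% of that sum, and without it the sums of WT and cKO overlap. Car8 and Rgs8, other Purkinje genes, differed by 0.10 and 0.05 and were not called.

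The markers of Golgi and other granular layer interneurons summed to 197, 212, 198 and 192 CPM in WT and 157, 159, 173 and 165 CPM in cKO. The groups did not overlap. Nos1, neuronal nitric oxide synthase, which granule and molecular layer neurons express too, makes up 43.6% of the summed markers. Its drop was larger than that of the whole sum, whose means were 199.7 CPM in WT and 163.6 CPM in cKO. The other markers together did not fall. Nos1 stood at 107, 95.6, 102 and 89.99 CPM in WT and 53.5, 57.3, 69.7 and 58.6 CPM in cKO, a log2 fold change of −0.72 (SE 0.0816, edgeR adjusted p 6.20e-04). Npy fell by 0.42 (called only without WT1, WT2 or cKO4 among those fits), Lgi2 rose by 0.22 (called only without WT2, WT4 or cKO3 among those fits), and Grm2, a defining gene of Golgi cells, differed by −0.07. None of 12 markers of molecular layer interneurons and none of 5 of unipolar brush cells was called. Their medians were 0.00 and −0.01. Of 9 markers of deep nuclear and large projection neurons Spp1 rose from 33.5 to 44.98 CPM and Kcnc1 fell.

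Astroglial genes moved in both directions. Gfap, the intermediate filament of astrocytes, stood at 182, 206, 196 and 177 CPM in WT and 327, 302, 363 and 345 CPM in cKO. Each cKO library exceeded each WT library, and the log2 fold change was 0.81 (SE 0.06195, edgeR adjusted p 1.60e-05). Gja1, connexin 43, rose by 0.25, and Aqp4, the water channel of astrocyte endfeet, stood at 618, 497, 571 and 568 CPM in WT and 679, 770.3, 915 and 894 CPM in cKO (not called without WT3, WT4 or cKO4). S100b and Acsbg1 fell by 0.23 and 0.16, and Aldoc, Slc1a2 and Glul, abundant astrocyte genes, differed by −0.05, −0.06 and −0.17 without a call. The astrocyte sum overlapped between genotypes. Of 18 genes of reactive astrocytes 3 rose (1 to 3, fewest without WT3, WT4 or cKO2) and none fell (median 0.29), led by complement C4b, from 17.2 to 23.6 CPM. The other called members were Cp (not called without WT1, WT3, WT4 or cKO2) and Cd109 (called only without WT1, WT2 or cKO3 among those fits). The summed reactive genes overlapped between genotypes, with means of 304 CPM in WT and 318 CPM in cKO. Vim, which makes up 57.4% of that sum, differed by −0.11 and was not called.

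Bergmann glia markers had 1 risen (1 to 2) and 1 fallen member (1 to 2) of 14. Slc1a3, the glutamate transporter GLAST, stood at 1820.4, 1772, 1798 and 1781 CPM in WT and 1498, 1561, 1501 and 1679 CPM in cKO. Its genotypes were separate, with a log2 fold change of −0.20 (SE 0.0413). Gdf10, a growth factor of Bergmann glia, rose from 195 to 234 CPM. The summed markers lay at 5351, 5135, 5288 and 5144 CPM in WT and 4587, 4896, 4905 and 5132 CPM in cKO, just without overlap. Slc1a3 makes up 33.2% of that sum, and without it the sums of WT and cKO overlap.

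Every called myelin gene fell, by small amounts. Of 34 tested markers of mature oligodendrocytes 13 fell and none rose (median −0.17), and 7 to 17 fell when a library was left out, fewest without cKO2. Fa2h stood at 35.5, 41.2, 38.2 and 40.2 CPM in WT and 30.3, 27.3, 30.7 and 30.1 CPM in cKO, Mal, a proteolipid of compact myelin, at 153, 172, 173 and 160.0 CPM in WT and 133, 118, 122 and 138 CPM in cKO and Cldn11, the tight junction protein of myelin, at 83.6, 84.8, 94.7 and 94.2 CPM in WT and 72.7, 68.9, 69.5 and 79.96 CPM in cKO. In each of these the cKO libraries lay below the WT ones. Ermn, Mog, Anln and Gpr37 fell by 0.28, 0.29, 0.33 and 0.19. The summed list overlapped, at 8806, 9048, 8313 and 9331 CPM in WT and 9091, 7245, 9041 and 7799.9 CPM in cKO, and contains Enpp2, which choroid plexus also expresses. No precursor marker was called lower. Of 16 only Pdgfra (1 to 2), the growth factor receptor of precursors, was called, and it rose from 28.04 to 33.7 CPM.

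Every called fibroblast gene of the meninges and vessels rose. Of 23 tested markers 9 rose and none fell (median 0.42), and 5 to 13 rose when a library was left out, fewest without cKO1. Their sum lay at 799.9, 754, 717 and 730.3 CPM in WT and 1155, 1048, 1127 and 1003 CPM in cKO, without overlap. Igfbp5 makes up 36.2% of that sum, and without it the sums of WT and cKO still do not overlap. Col1a2, a chain of type I collagen, stood at 28.2, 30.4, 26.7 and 33.02 CPM in WT and 40.6, 36.7, 38.3 and 37.6 CPM in cKO, higher in each cKO library. Igf2, a growth factor of meninges and choroid plexus, stood at 139.9, 106, 103 and 123.96 CPM in WT and 214, 172, 222 and 172 CPM in cKO (called only without WT1, cKO2 or cKO4 among those fits). It was not called with sex as a covariate (edgeR adjusted p 0.0516) or with the replicate number as a block (0.0530), and its exons overlap those of its antisense gene Igf2as. Fn1 differed by 0.13 and was not called. Igfbp5, Ddr2, Col1a2 and Spp1 all belong to the list, and the part of this summed level in the rise of each was not tested. Choroid plexus markers had no call among 14 and varied within both genotypes, with sums of 3626, 2313, 248 and 3725 CPM in WT and 5689, 1295, 5190.0 and 1476 CPM in cKO.

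Immune and vascular lists held 5 called genes, all higher in cKO. The called shares were 4.55% of microglial, 16.7% of blood and immune and 13.3% of pericyte and smooth muscle genes. Over all tested genes the share was 7.59%. Macrophage lectin genes outside these lists, Clec10a and Mgl2, were called lower, as given under other observations. Of 22 microglial genes Fcrls alone rose (1 to 3), from 4.89 to 7.01 CPM, and Csf1r differed by 0.05. Of 12 markers of blood and immune cells 2 rose (1 to 2) and none fell (median 0.46), Mrc1, a gene of perivascular macrophages, from 4.43 to 6.39 CPM, and Cd74, the invariant chain of antigen presentation, from 4.28 to 5.88 CPM (called only without WT1 or cKO2 among those fits). The summed blood and immune markers overlapped between genotypes, with means of 80.6 CPM in WT and 79.5 CPM in cKO. The gene Beta-s makes up 59.96% of that sum. None of 21 endothelial genes was called (median 0.00), and of 15 pericyte and smooth muscle genes 2 rose (1 to 2, fewest without WT1, WT3, cKO1 or cKO4), Rgs5 by 0.22 and Atp13a5 by 0.29 (not called without WT1, WT3, cKO1 or cKO4). Markers of forebrain, midbrain and other hindbrain held no call among 7, 3 and 3 tested genes, and the sums of all 3 lists overlapped between genotypes.

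**Figure D5:**
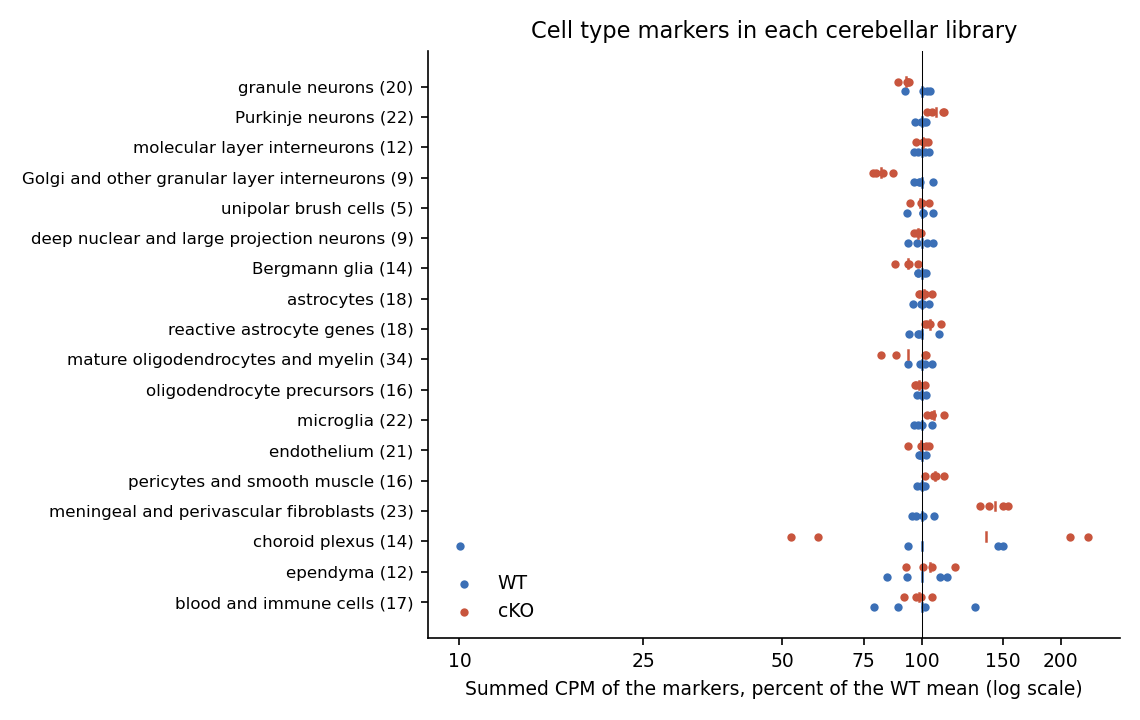
Each point is a library, at the summed CPM of a cell type's markers in percent of the WT mean (log scale), with the number of listed markers in brackets. Blue is WT, red is cKO and short lines are means. The fibroblast sums of cKO lie to the right of WT, the Golgi list lies to the left, and the choroid plexus sums spread widely in both genotypes with WT3 lowest.

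The striatal libraries of the same genotypes were fitted apart, and there 54 genes (0.384% of those tested) were called. The libraries of that tissue are fewer and shallower, and called counts of the 2 regions are therefore not comparable. Of 1072 genes called in cerebellum and tested in striatum, 39 were called there too, 38 of them in the same direction. Among genes that changed 2-fold or more in cerebellum, 26 of the 27 tested in striatum had the same sign there, against 55.8% of all genes and 62.2% of called genes under 1.25-fold. Called genes with the paired promoter elements had the same sign in 50 of 54. In striatum itself 12 of 158 genes with the pair were called (7.59%), against 45 of 10696 genes with a promoter entry (0.421%). Of those 12, 9 are among the 13 genes from which the pair was read. Without these 13, 3 of 145 genes (2.07%) were called in striatum, and 37 of 41 genes called in cerebellum had the same sign there. The striatal log2 fold changes of Cuedc2, Ech1 and Racgap1 were −1.90, −3.05 and 0.84, beside −1.73, −2.51 and 1.30 in cerebellum.

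The difference between the regions was tested as the interaction of genotype and tissue in 1 model of all 14 libraries, and 60 of 15401 genes (0.390%) passed. That count ran from 17 without striatal cKO3 to 193 without striatal WT2, was 19 to 28 without any 1 cerebellar library, was 228 by DESeq2 and was 13 with the replicate number as a block. Whether the tissues came from the same animals is not stated, and the model takes all libraries as independent. Of the genes called in cerebellum 31 were among them. Tomm40l, a paralogue of the mitochondrial import pore, rose by 0.34 in cerebellum and stood at −1.43 in striatum (interaction 1.76, SE 0.121, edgeR adjusted p 2.42e-06). Fbxo9 had −0.60 in cerebellum and 0.14 in striatum (interaction edgeR adjusted p 0.00123), and Synpr −1.10 and −0.08 (0.0287). Some myelin genes fell less in cerebellum than in striatum. Mal had log2 fold changes of −0.37 and −1.08, with an interaction of 0.70 (edgeR adjusted p 0.0229), and Anln and Gpr37 passed the same test. Ppp2r3c, Zfp882, Kcnt1, Alg12 and Myo15 passed too. Thap1 differed by −0.34 in cerebellum and −1.36 in striatum, and the interaction of 1.01 did not pass (edgeR adjusted p 0.0884).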

How the data were processed

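RNA was measured by sequencing in 8 cerebellar and 6 striatal samples. The authors deposited raw read counts per gene symbol, 1 table per sample with 23337 symbols. The submitters' processing notes name build mm10 and, without an order, DESeq2, HTSeq 0.6.1p1, STAR and cutadapt 1.13. STAR's version, the annotation and the strand setting were not given in the sources, so counts of overlapping and antisense genes are uncertain.

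From these counts, genes were kept by filterByExpr (minimum count 10, minimum total 15) and scaled by TMM in edgeR 4.0.16 (R 4.3.3). Genotypes were compared over the 8 cerebellar libraries with the robust quasi-likelihood test and a Benjamini-Hochberg adjusted p under 0.05, genotype being the only term. Standard errors (SE) were obtained by dividing the log2 fold change by the root of the F statistic. Thap1 was also compared by an exact permutation test. The interaction and the striatal comparison used the same tool. Replicate pairs differed beyond sampling noise (the lowest chi-square was 5.93 per degree of freedom), so each library counted as 1 sample. The fit was tested on simulated data.

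The members, the gene lists and the tests were chosen with earlier results of these data known. Library totals as scaling and the promoter search were added after the data had been seen. Genes named were Thap1, up to 15 risen and 15 fallen called genes with the smallest p (mean CPM of at least 1, no overlap, named symbols only), 10 per direction with the highest CPM, 6 with the largest fold change, and per list up to 8 called members and 3 of the highest CPM. Some genes the rule takes are left out for length, and some are not reported here. Other genes, such as 1110034G24Rik, 2210009G21Rik and Tmem180, were named after their values were seen. The whole upstream sequence was printed for Racgap1 only. Of the symbols, 89.8% matched the current symbol of GENCODE vM21 (GRCm38, the assembly mm10), and 8.16% matched through a synonym.

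Other settings tried were scaling by library totals, by upper-quartile factors or by the size factors of DESeq2, a filter at a mean of 1 CPM and none at all, testing with DESeq2 1.42.0, limma-voom 3.58.1 with quality weights, a sex covariate, a replicate block, removal of the trend with exon length, 1 model over all 14 libraries, a threshold of 0.1 on the adjusted p, and the removal of each library in turn.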

Additional observations from a re-analysis of the deposited data

Results flagged for a closer look

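In 466 tests of a single library standing apart within a genotype, 19 met Dixon's 95% limit, and chance flags about 1 group in 20. High values were seen for Atpbd4 (17.8 CPM) and Cacna1i (165 CPM) in WT3, Canx (495 CPM) and Hsp90b1 (548 CPM) in WT1, and Cpxm2 (2.77 CPM), Fcrls (5.09 CPM) and Mtap7 (104 CPM) in WT4. Spp1 (39.9 CPM) and the summed forebrain markers (221 CPM) were high in WT2, Fat2 (1022 CPM) and Kcnj10 (428 CPM) in cKO3, and Canx (551 CPM), Grm2 (20.6 CPM) and Kcnj12 (82.7 CPM) in cKO4. Low values were seen for Rgs5 (48.7 CPM) in WT2, Ogt (432 CPM) in WT3, Fn1 (47.4 CPM) in WT4, Dnlz (52.9 CPM) in cKO1 and Prpsap1 (73.6 CPM) in cKO2.

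The genotype difference itself differed between the tissues for 11 genes of the text, by the interaction test. The log2 fold change in cerebellum less that in striatum was 1.76 for Tomm40l, 0.92 for Alg12, 0.70 for Mal, 0.68 for Anln, 0.63 for Gpr37, −0.44 for Kcnt1, −0.55 for Ppp2r3c, −0.76 for Fbxo9, −1.04 for Synpr, −1.76 for Zfp882 and −4.82 for Myo15. Myo15 did not pass the low-count filter in the striatal comparison, so its value depends on how the fit treats counts near 0.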

How the results depend on the processing

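Of 178 called genes named in the text, 152 kept their call whichever cerebellar library was left out and 78 in the model of all 14 libraries, and no named gene that was called reversed. The 1121 calls (388 higher, 733 lower) became 251 (72 and 179) in the model of all 14 libraries, and 30 of the 54 genes with the paired promoter elements were called there. At an adjusted p under 0.1 there were 1773 (692 higher). Leaving out 1 library gave 739 (without WT3) to 1165 (without WT2) calls, 232 to 401 higher and 488 to 764 lower. Scaling by library totals made 513 of 1150 calls higher (44.6%, against 34.6%) and by upper quartiles 445 of 1139. Called members of the lists numbered 288, and 67 with all 14 libraries, 455 at an adjusted p under 0.1 and 184 to 308 without 1 library. The interaction count of 60 became 228 by DESeq2, 102 by limma-voom and 17 to 193 without 1 library. The log2 fold change of Thap1 (−0.34) was not called with DESeq2's size factors (−0.34, adjusted p 0.0503), upper quartiles (−0.33, 0.0520), a mean of 1 CPM (−0.34, 0.0516), DESeq2 (−0.34, 0.0569), sex (−0.34, 0.0539), the length trend removed (−0.34, 0.0532), library totals (−0.33, 0.0597) or all 14 libraries (−0.35, 0.353), and ran from −0.40 to −0.27 without 1 library. The cause of these differences was not tested, beyond the fewer libraries in the leave-out fits.

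With the replicate number as a block, 1246 genes were called and the interaction count was 13. The replicate numbers are not shown to pair the samples. Same-numbered libraries correlated at 0.34, 0.16, 0.057 and 0.20 in their deviations from the group means, and not every library correlated best with its own number. Numbers 1 and 2 are male and 3 and 4 female by their sex-linked genes.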

Other observations

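The paired promoter elements also lie in the promoter windows of called genes of smaller change that the comparison did not describe. Among risen ones are Mcmbp, which binds the replicative MCM helicase (log2 fold change 0.36), Rcan1, an inhibitor of calcineurin (0.38), Cdk5rap2, a centrosomal protein (0.29), Coq9, a factor of coenzyme Q synthesis (0.28), and Galc and Alg12, given above. Among fallen ones are Rpa2, a subunit of the single-strand DNA-binding complex RPA (−0.47), Slc5a6, a vitamin transporter (−0.34), Tmed10, a cargo receptor of the early secretory pathway (−0.29), Slc17a5, and Fig4, a phosphoinositide phosphatase (−0.23). These genes were chosen after their values were seen.

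Some genes past 2-fold fall outside the groups above. Igsf1, an immunoglobulin superfamily membrane protein, rose from 4.32 to 10.01 CPM. Clec10a and Mgl2, lectins of macrophages, fell from 1.25 to 0.524 CPM and from 2.04 to 0.787 CPM (not called without WT3, cKO1, cKO2 or cKO3), and Mgl2 overlapped between genotypes. Cabp2, a calcium-binding protein, fell from 5.83 to 2.63 CPM, and Ltf, lactoferrin, from 0.745 to 0.241 CPM. Several of these are near 1 CPM in both genotypes.

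Calls were more frequent among genes with long transcripts. The tested genes were split into 4 equal groups by exon length. In the group with the shortest exons 71 genes rose and 108 fell of 3655 tested, and in the group with the longest 122 rose and 232 fell of 3650. The median log2 fold changes of these groups were 0.0131 and −0.000871.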
